A study of Mus musculus with 18 samples.

Results

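Kupffer cells isolated from mouse liver 12 h after acetaminophen were compared with Kupffer cells isolated at 0 h, with 3 RNA-seq libraries in each group, so 6 of the 18 libraries of the series. All 6 libraries were labelled as wild-type C57BL/6J mice, and the 12 h group was labelled as acetaminophen treated. The 0 h group carried the same treatment label, but its columns in the deposited table were named for PBS, and it is called 0 h here. Dose, route, age, sex and time of day were not given in the labels. Cells came from perfused, collagenase-digested livers by a low-speed spin, a density gradient and attachment to a culture dish, so other liver cells can be carried along. The labels number the 3 samples of each group as experiments 1 to 3, and nothing says that each is a separate animal, so the p-values measure only the spread between these samples, which may be technical. The 0 h libraries stood in a table with those taken at 3 h, and the 12 h libraries in another table with those taken at 6 h. Time and table cannot be told apart in this comparison, and each 12 h library is therefore shown on its own. Of 18853 genes in the first table and 18373 in the second, 18003 were in both, and 14065 of these had enough counts to be tested.

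Kupffer cells are the resident macrophages of the liver sinusoids, where they clear particles, bacteria and ageing red cells from the blood. In acetaminophen injury, hepatocytes convert the drug with cytochrome P450 enzymes into a reactive product that depletes glutathione, and pericentral hepatocytes die. Macrophages then take up the debris while monocytes enter from the blood, and both change their programme from inflammation towards repair.

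Levels are given as CPM, the count scaled to a library total of 1000000 after TMM scaling (the trimmed mean of M values). Differences are log2 fold changes of 12 h over 0 h with their standard error (SE), from the quasi-likelihood test of edgeR, whose p-values were adjusted by the Benjamini-Hochberg method over all 14065 genes. By that test 0 genes passed an adjusted p of 0.05, which is 0% of those tested. The smallest adjusted p was 0.0706, shared by 71 genes. Without the first 12 h library the same test called 39 genes higher and 160 lower at 12 h, without the first 0 h library 1 higher and 194 lower, and without any other library 0. At an unadjusted p under 0.05 there were 1968 genes (14%), of which 834 (5.93%) were higher at 12 h and 1134 (8.06%) lower. At an adjusted p under 0.1 there were 300 genes (2.13%), with 44 (0.313%) higher at 12 h and 256 (1.82%) lower. DESeq2, run as the alternative test on the same counts, called 891 genes (6.33%) at an adjusted p under 0.05, of which 238 (1.69%) were higher at 12 h and 653 (4.64%) lower, and all 891 had an unadjusted edgeR p under 0.05. That number varied with the libraries used. DESeq2 called 711 genes higher and 1164 lower without the first 12 h library. Without the second 12 h library it called 480 higher and 867 lower, and without the third 12 h library 159 higher and 522 lower. It called 99, 35 and 96 genes higher and 619, 265 and 363 lower without the first, second and the third 0 h library. In what follows, "separated" means that all 3 libraries of 1 group lay above all 3 of the other: 2897 of the 14065 genes (20.6%) were separated, 1238 (8.8%) with 12 h higher and 1659 (11.8%) with 12 h lower. The counts over gene lists below are to be read against these shares, and against a median log2 fold change of 0.05 over all genes tested.

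The 3 libraries from 12 h differed more from each other than those from 0 h. Library totals were alike, from 19357416 to 20582847 counts at 12 h and from 19253951 to 19951390 at 0 h. Across 9529 genes, the median SD of log2 CPM was 0.451 at 12 h and 0.151 at 0 h. The correlation of log2 CPM across genes, given as a description, was 0.793 to 0.868 between 12 h libraries and 0.948 to 0.981 between 0 h libraries. The first 12 h library correlated at 0.960 to 0.966 with the 3 libraries from 6 h, above its values with the other two 12 h libraries. In it, the median of 18 monocyte-derived macrophage genes was 1.85 below the 0 h mean on the log2(CPM + 1) scale, against 0.48 and 0.85 above it in the second and the third 12 h libraries. In the second 12 h library the level followed transcript length. The shortest sixth of 12930 genes was 0.72 above the 0 h mean and the longest sixth 0.75 below it, and the Spearman correlation with length across genes was -0.59, against -0.15 to 0.18 in the other libraries of both groups. In the third 12 h library the median of 20 sinusoidal endothelial genes was 2.40 below the 0 h mean, and their summed level was 2214 CPM, against 14133 and 6467 CPM in the other 12 h libraries and 8317 to 10671 CPM at 0 h. How far these differences enter each result below was not tested beyond the values without single libraries that are given.

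**Figure D1:**
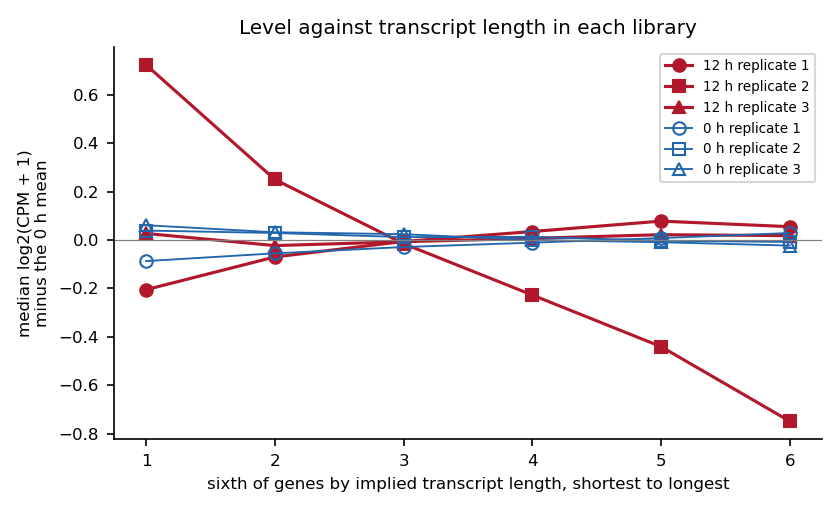
Median over genes of log2(CPM + 1) minus the 0 h mean (vertical axis) for sixths of 12930 genes ordered from the shortest to the longest transcript (horizontal axis), with 1 line per library, filled red for 12 h and open blue for 0 h. The second 12 h library (red squares) runs from 0.72 in the shortest sixth to -0.75 in the longest, while the other lines stay near 0.

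The genes were read through 50 gene lists, 12 of them for cell types, and the medians of the main ones show the direction of each group of genes in each library. Genes of lipid-associated macrophages, lysosomes, DNA replication and part of glycolysis lay above the 0 h mean in most 12 h libraries. Hepatocyte, acute phase, interferon-stimulated and cholesterol synthesis genes lay below it in all 3.

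**Figure D2:**
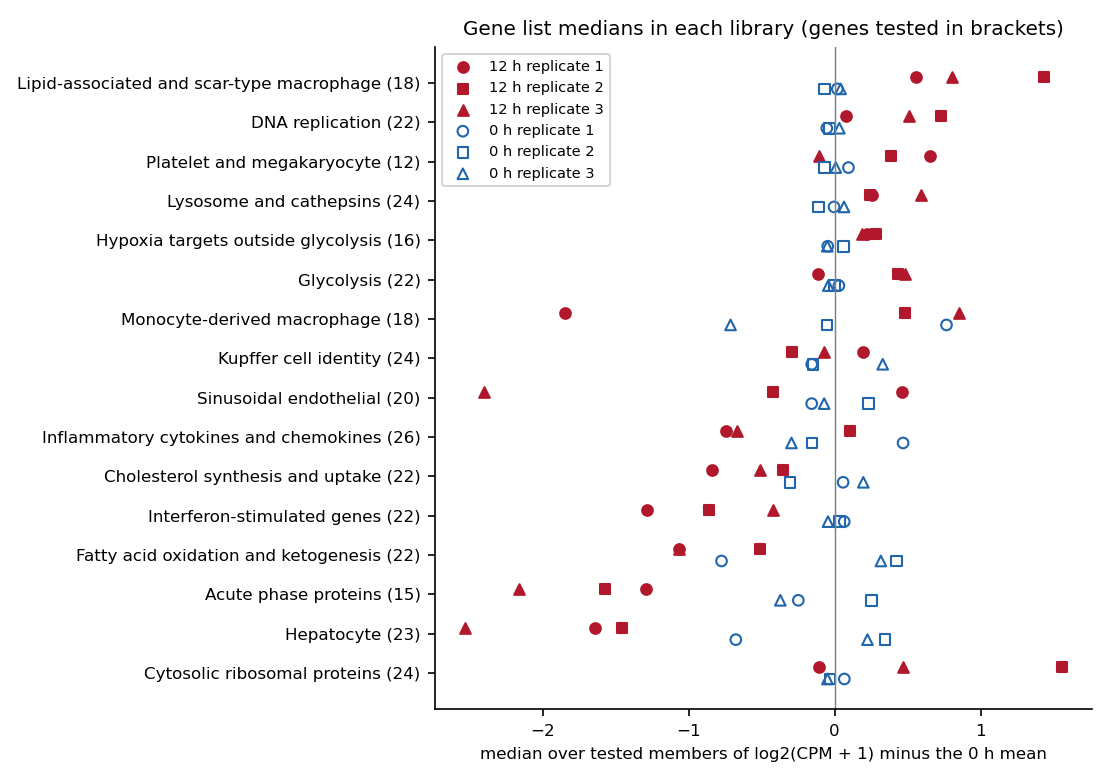
Median over the tested members of each list of log2(CPM + 1) minus the 0 h mean (horizontal axis) in each library, with filled red symbols for 12 h and open blue symbols for 0 h, and circles, squares and triangles for replicates 1, 2 and 3. The 12 h symbols of the hepatocyte list lie at -1.64, -1.46 and -2.53, and those of the lipid-associated macrophage list at 0.56, 1.43 and 0.81.

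The clearest difference was a lower level of hepatocyte transcripts at 12 h. All 23 tested hepatocyte genes had a negative log2 fold change, with a median of -1.81. Of them, 13 were separated with 12 h lower and 0 with 12 h higher, and DESeq2 called 11 lower. Their summed level, over the whole list with no member at 0 in a group, was 5200, 4791 and 2244 CPM at 12 h, against 6940, 13816 and 12922 CPM at 0 h. The first 0 h library was the lowest of its group. These libraries are bulk RNA from a mixed preparation, so fewer hepatocytes and less RNA per hepatocyte cannot be told apart. Without any single library the DESeq2 count for this list lay between 8 and 16 and the edgeR median between -2.21 and -1.32.

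Hnf4a, the transcription factor that maintains the hepatocyte programme (chr2:163506811-163572907, GRCm38.p6), had 21.1, 15.3 and 17.8 CPM at 12 h, against 75.4, 225 and 199.6 CPM at 0 h. The groups did not overlap, and the log2 fold change was -3.17 ± 0.43 (SE; edgeR adjusted p = 0.0706). Hpd, an enzyme of tyrosine breakdown, had 32.9, 65.5 and 34.3 CPM at 12 h, against 278, 843 and 612 CPM at 0 h. Its log2 fold change was -3.64 ± 0.53 (edgeR adjusted p = 0.0706), the most negative in the list. The cytochrome P450 genes that activate acetaminophen were lower as well. Cyp2e1 had 39.2, 50.4 and 17.2 CPM at 12 h, against 177, 275 and 199 CPM at 0 h (log2 fold change -2.54 ± 0.44). Cyp3a11 had 7.30, 17.9 and 9.53 CPM at 12 h, against 64.4, 90.1 and 60.9 CPM at 0 h (-2.57 ± 0.40). Albumin, the main plasma protein, differed less: Alb averaged 1458 ± 750.3 CPM (SD) in the 12 h group and 2607 ± 687 CPM in the 0 h group (n = 3 each), which gives a log2 fold change of -0.78 ± 0.51 that did not pass (edgeR adjusted p = 0.539). The log2 fold changes in the list ran from -3.64 to -0.50, and whether its genes differed by a common factor was not tested.

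Over all genes, the 14 lower and the 14 higher ones with the largest fold change and a DESeq2 call were chosen after their values were seen, because the rule set for naming genes was tied to edgeR calls and named 0. Of the 14 lower genes, 5 were major urinary protein genes (Mup11, Mup16, Mup17, Mup18 and Mup19), 3 were serum amyloid genes (Saa1, Saa2 and Saa4), and the others were Etnppl, Cth, Bhmt, Onecut1, Mat1a and Hal. The Mup genes are near-identical copies whose reads the counting could have split in different ways, so they are given as a group: their log2 fold changes ran from -6.51 to -3.96. Mat1a makes S-adenosylmethionine in liver, and it had 195, 65.3 and 52.8 CPM at 12 h, against 845, 3024 and 1996 CPM at 0 h (log2 fold change -4.20 ± 0.72, edgeR adjusted p = 0.0746). Bhmt uses the homocysteine that this pathway yields. Bhmt had 123, 200.2 and 112 CPM at 12 h, against 1408, 4262 and 4348 CPM at 0 h. Cth, an enzyme on the path from homocysteine to cysteine, the precursor of glutathione, had 3.41, 8.78 and 6.37 CPM at 12 h, against 34.5, 229 and 191 CPM at 0 h. In each of these 3 genes the first 0 h library was the lowest of its group.

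Acute phase protein genes, which hepatocytes transcribe in inflammation, were mostly lower at 12 h. Of 15 tested, 8 were separated with 12 h lower and 0 with 12 h higher, DESeq2 called 7 lower, and the median log2 fold change was -1.32. Without the second 0 h library DESeq2 called 3 of them. The hepatocyte list had a median of -1.81 and moved with these genes, and its part in their values was not tested. Saa1 had 0.569, 0.469 and 0.552 CPM at 12 h, against 18.6, 71.9 and 17.0 CPM at 0 h. Its log2 fold change was -6.02 ± 0.72 (edgeR adjusted p = 0.0706). Saa2 had 0.207, 0.469 and 0.10 CPM at 12 h, against 10.8, 50.1 and 11.2 CPM at 0 h. The reads of these close paralogs may be shared, so each value alone is uncertain, while both lay below 1 CPM in every 12 h library. Crp, C-reactive protein, had 6.57, 5.54 and 3.86 CPM at 12 h, against 21.5, 41.4 and 25.9 CPM at 0 h (log2 fold change -2.42 ± 0.35, edgeR adjusted p = 0.0706). Orm1, which encodes an acid glycoprotein of plasma, had 16.9, 27.0 and 8.47 CPM at 12 h, against 43.0, 162 and 80.0 CPM at 0 h.

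Genes of fatty acid oxidation and ketogenesis had a median log2 fold change of -0.85 over 22 genes, with 5 separated lower, 0 separated higher, and 4 called lower by DESeq2. Cpt2, which loads fatty acids onto coenzyme A in mitochondria, had 23.7, 23.4 and 20.6 CPM at 12 h, against 38.1, 98.9 and 75.7 CPM at 0 h (log2 fold change -1.60 ± 0.36, edgeR adjusted p = 0.103). Etfdh, which passes electrons from fatty acid oxidation to the respiratory chain, had 35.4, 32.9 and 26.6 CPM at 12 h, against 46.9, 116 and 102 CPM at 0 h (-1.43 ± 0.36, edgeR adjusted p = 0.13). The groups did not overlap in either gene. The list's DESeq2 count depended on the libraries: it was 10 without the second 12 h library, 2 without the third 12 h library or without the third 0 h library, 9 without the first 0 h library and 1 without the second 0 h library. Of 9 enzymes of itaconate, nitric oxide and arginine metabolism, 4 were separated lower, and 3 of these, Arg1, Ass1 and Asl, were called by DESeq2. These 3 are urea cycle enzymes of hepatocytes and also work in macrophages. Arg1 had 73.6, 92.8 and 60.7 CPM at 12 h, against 151, 743 and 455 CPM at 0 h. Acod1, which makes itaconate in activated macrophages, ranged from 35.2 to 122 CPM at 12 h and from 65.2 to 429 CPM at 0 h, and the groups overlapped. The hepatocyte list moved with both groups of genes, and its part in these values was not tested.

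**Figure D3:**
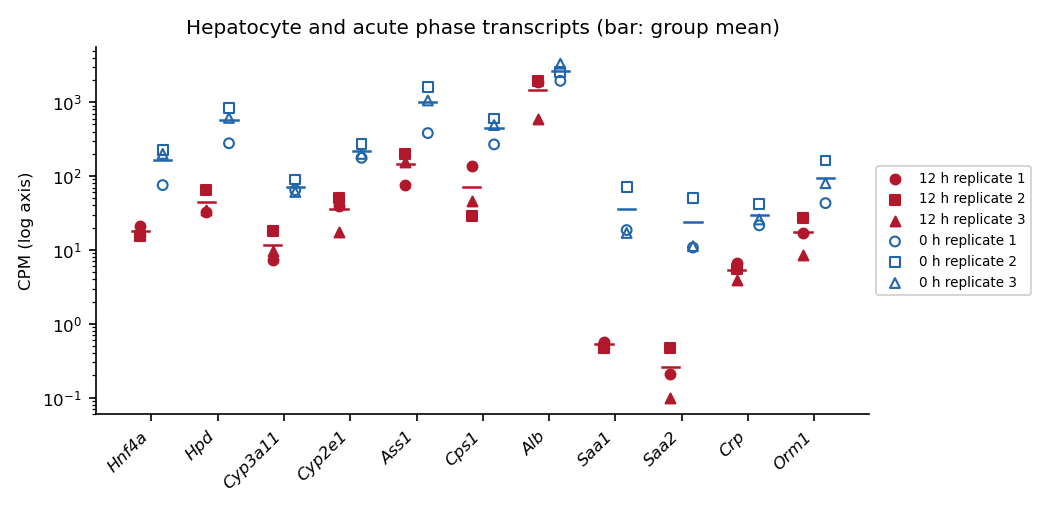
CPM on a log axis (vertical) of 11 hepatocyte and acute phase genes (horizontal) in each library, with filled red symbols for 12 h to the left of open blue symbols for 0 h and a bar at each group mean. The groups do not overlap in any of the 11 genes, and the gap is smallest for Alb.

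Interferon-stimulated genes, which restrict viruses and are switched on by interferon signalling, formed a second group with lower levels at 12 h. Of 22 tested, 13 were separated with 12 h lower and 0 with 12 h higher, DESeq2 called 7 lower, and the median log2 fold change was -0.68. The library medians were -1.28, -0.86 and -0.42 at 12 h, against 0.07, 0.03 and -0.05 at 0 h. They were also below the 0 h mean at 3 h (-0.76, -0.50 and -0.63) and at 6 h (-1.08, -0.33 and -0.38). The list median was -0.10 for 12 h over 6 h and -0.10 for 12 h over 3 h, so the lower level was not particular to 12 h. The DESeq2 count was 4 without the second 0 h library and 10 without the third 12 h library. The promoters of such genes often hold a sequence element, the interferon-stimulated response element, that can be written as GAAA, any 2 bases and GAAA again, searched here on both strands in the stretch from 250 bases before to 50 bases after the start of transcription in RefSeq (GRCm38.p6). It was present in 12 of the 19 listed genes that had a promoter in that table (63.2%). Among all tested genes with a promoter there it was present in 440 of 11198 (3.93%). A gene was counted if any of its starts had a match. Counted by single promoters, 1131 of all 32851 (3.44%) held it. The promoters of 4 genes that carry it and were separated with 12 h lower are shown 5′ to 3′ on the strand of the gene, with the element in capitals. Capitals that begin with TTTC are the element read on the opposite strand.
Gbp5: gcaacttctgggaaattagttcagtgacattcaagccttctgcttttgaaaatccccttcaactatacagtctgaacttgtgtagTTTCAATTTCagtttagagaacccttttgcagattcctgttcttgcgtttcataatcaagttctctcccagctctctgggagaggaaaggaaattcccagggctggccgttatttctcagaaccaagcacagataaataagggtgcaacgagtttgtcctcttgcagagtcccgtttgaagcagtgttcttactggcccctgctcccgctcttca
Rsad2: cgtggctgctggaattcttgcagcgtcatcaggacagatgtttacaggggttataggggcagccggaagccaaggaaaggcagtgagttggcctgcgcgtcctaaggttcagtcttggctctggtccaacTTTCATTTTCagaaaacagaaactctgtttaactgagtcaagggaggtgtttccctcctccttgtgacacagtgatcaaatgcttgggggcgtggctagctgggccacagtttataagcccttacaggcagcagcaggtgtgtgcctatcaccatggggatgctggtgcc
Ifit1: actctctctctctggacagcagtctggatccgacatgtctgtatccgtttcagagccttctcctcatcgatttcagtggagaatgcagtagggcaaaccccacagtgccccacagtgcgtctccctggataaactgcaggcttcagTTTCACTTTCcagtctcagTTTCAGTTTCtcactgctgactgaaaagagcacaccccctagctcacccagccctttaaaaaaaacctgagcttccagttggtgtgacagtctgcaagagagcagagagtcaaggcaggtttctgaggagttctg
Ifih1: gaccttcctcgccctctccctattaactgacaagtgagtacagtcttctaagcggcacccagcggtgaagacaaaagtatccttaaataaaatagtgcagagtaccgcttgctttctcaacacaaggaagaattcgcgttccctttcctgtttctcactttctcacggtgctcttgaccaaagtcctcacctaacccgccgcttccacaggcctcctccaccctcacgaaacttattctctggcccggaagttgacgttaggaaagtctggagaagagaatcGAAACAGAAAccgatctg
These stretches lie at chr3:142496684-142496983 on the plus strand for Gbp5, chr12:26456403-26456702 on the minus strand for Rsad2, chr19:34640639-34640938 on the plus strand for Ifit1 and chr2:62646206-62646505 on the minus strand for Ifih1. The element begins 165 bases before the start in Gbp5 and 120 before it in Rsad2. Ifit1 holds 2 copies, 104 and 85 bases before the start, and in Ifih1 the element lies 32 bases after the start. A match describes the letters only and does not show binding, and 5 of the 13 separated genes had no match or no promoter in the table. Genes that overlapped between the groups held the element too: Isg15 with 3 matches, Gbp3 and Oas1a with 2 each and Oas3 with 1. Irf7, Irf9 and Oasl2, which also overlapped, had no match.

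Gbp5, a guanylate-binding GTPase that attacks pathogen membranes, had 15.6, 26.7 and 23.0 CPM at 12 h, against 119, 104 and 53.1 CPM at 0 h. The log2 fold change was -2.02 ± 0.37 (edgeR adjusted p = 0.0747). Rsad2, the antiviral enzyme viperin, had 82.9, 70.8 and 80.5 CPM at 12 h, against 272, 223 and 136 CPM at 0 h (-1.39 ± 0.29, edgeR adjusted p = 0.0938). Ifit1, which binds foreign RNA ends, had 7.19, 15.1 and 17.1 CPM at 12 h, against 45.5, 46.2 and 31.2 CPM at 0 h (-1.59 ± 0.37, edgeR adjusted p = 0.112). Ifih1, the double-stranded RNA sensor MDA5, had 61.2, 46.7 and 86.7 CPM at 12 h, against 164, 139 and 103 CPM at 0 h (-1.03 ± 0.29, edgeR adjusted p = 0.17). All 4 were shown from among the separated genes. Oasl1 and Ifi44 were also separated, with log2 fold changes of -2.16 ± 0.38 and -1.44 ± 0.23. Other members overlapped: Irf7, a transcription factor of the interferon loop, had 161, 252 and 340.2 CPM at 12 h, against 236, 222 and 282 CPM at 0 h, and Isg15, a ubiquitin-like modifier, had 6.42, 48.7 and 25.6 CPM at 12 h, against 56.0, 46.2 and 40.7 CPM at 0 h.

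**Figure D4:**
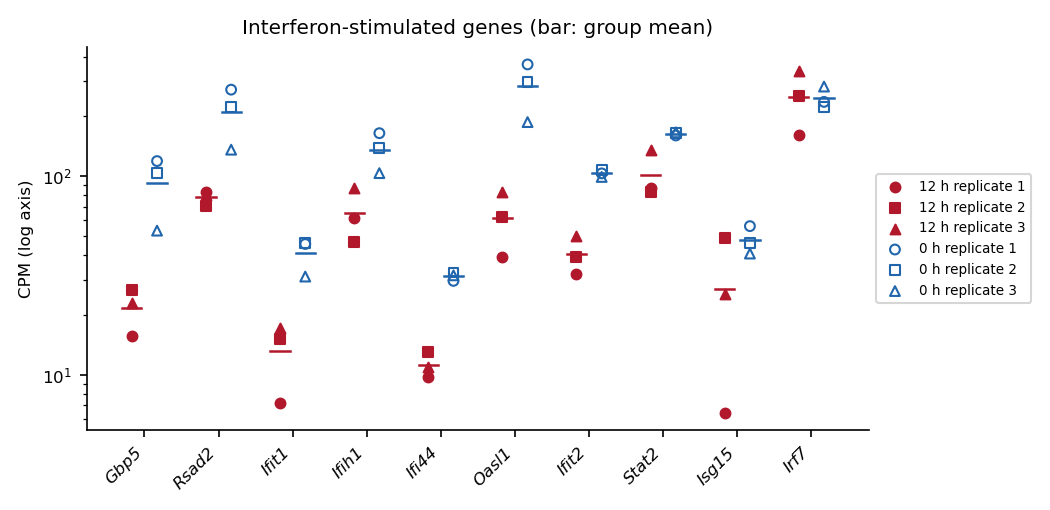
CPM on a log axis (vertical) of 10 interferon-stimulated genes (horizontal) in each library, with filled red symbols for 12 h to the left of open blue symbols for 0 h and a bar at each group mean. The groups are apart in 8 of the 10 genes and overlap in Isg15 and Irf7.

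On the higher side, genes of lipid-associated and scar-type macrophages stood out. These are macrophages described in fatty, injured and fibrotic liver that take up lipid and cell debris. All 18 tested genes had a positive log2 fold change, with a median of 0.92, 8 were separated with 12 h higher and 0 with 12 h lower, and DESeq2 called 5 higher (Gpnmb, Mmp12, Cd63, Trem2 and Apoc2). Without the first 12 h library DESeq2 called 10. Gpnmb, a membrane glycoprotein of lysosome-rich macrophages (chr6:49036518-49058182, GRCm38.p6), had 16.0, 167 and 183 CPM at 12 h, against 5.00, 4.39 and 4.57 CPM at 0 h. The first 12 h library was far below the other two and still above every 0 h library. The log2 fold change was 4.77 ± 0.87, with an edgeR adjusted p of 0.0747 and a DESeq2 adjusted p of 1.96e-08. Mmp12, macrophage elastase, had 150.2, 442 and 937 CPM at 12 h, against 37.4, 18.2 and 42.0 CPM at 0 h (4.01 ± 0.71, edgeR adjusted p = 0.0747). Trem2, the lipid-sensing receptor that defines these cells, had 31.1, 89.0 and 88.4 CPM at 12 h, against 15.2, 15.3 and 29.2 CPM at 0 h (1.86 ± 0.48, edgeR adjusted p = 0.14). Cd63, a tetraspanin of late endosomes, had 28.0, 91.9 and 47.2 CPM at 12 h, against 11.8, 9.38 and 8.69 CPM at 0 h (2.55 ± 0.47, edgeR adjusted p = 0.0747). Apoc2, the cofactor of lipoprotein lipase, averaged 48.2 ± 21.5 CPM (SD) in the 12 h group and 14.4 ± 2.27 CPM in the 0 h group (n = 3 each). Spp1, Lgals3 and Fabp5, which belong to the same programme, were not separated: Lgals3, for example, had 277, 1009.9 and 714 CPM at 12 h, against 338, 249 and 316 CPM at 0 h.

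In most of these genes the first 12 h library was the lowest of the 3, and it was also the library with the fewest monocyte transcripts. The 18 monocyte-derived macrophage genes summed to 3969, 7937 and 14398 CPM at 12 h, against 12010, 6986 and 4607 CPM at 0 h, with no member at 0 in a group, and 1 of the 18 was separated. Ccr2, the receptor that brings monocytes into tissue, had 37.9, 393 and 578 CPM at 12 h, against 435, 339 and 183 CPM at 0 h, and the groups overlapped. The part of monocyte-derived cells in the macrophage genes above was not tested. The separated monocyte gene was Ace, the angiotensin-converting enzyme, with 20.2, 89.1 and 233 CPM at 12 h, against 7.53, 11.7 and 12.8 CPM at 0 h (log2 fold change 3.45 ± 0.81). The other genes among the 14 with the largest DESeq2-called increase were Mfsd13b, Angptl4, Bmf, Dbp, Matk, Havcr2, Etv1, Rnf150 and Abcg3. Havcr2, the checkpoint receptor TIM-3, had 16.7, 33.1 and 55.2 CPM at 12 h, against 9.34, 8.78 and 9.24 CPM at 0 h. Angptl4, an inhibitor of lipoprotein lipase, had 33.6, 6.62 and 8.37 CPM at 12 h, against 3.04, 2.72 and 3.11 CPM at 0 h, so here the first 12 h library was the highest.

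Lysosomal genes were shifted by a smaller amount. Of 24 tested, 23 had a positive log2 fold change with a median of 0.43, and 7 were separated with 12 h higher, 0 with 12 h lower, while DESeq2 called 0. Without the first 12 h library DESeq2 called 9. The library medians of the list were 0.26, 0.24 and 0.60 at 12 h and 0.32, 0.34 and 0.29 at 6 h. The list median was 0.02 for 12 h over 6 h and 0.28 for 12 h over 3 h, so the shift was not particular to 12 h. Ctsd, the aspartic protease cathepsin D, had 2228, 2696 and 2543 CPM at 12 h, against 1495, 1447 and 2009.5 CPM at 0 h (log2 fold change 0.64 ± 0.30, edgeR adjusted p = 0.407). Gusb, which cleaves glucuronides, had 149.7, 215 and 279 CPM at 12 h, against 127, 111 and 129 CPM at 0 h (0.86 ± 0.28, edgeR adjusted p = 0.23). The groups did not overlap in either gene, and in both the difference missed the threshold. Cholesterol synthesis and uptake ran the other way: 8 of 22 genes were separated with 12 h lower, 0 with 12 h higher, DESeq2 called 2 lower, and the median was -0.48. Hsd17b7, an enzyme of the later steps of cholesterol synthesis, had 3.98, 4.27 and 3.96 CPM at 12 h, against 11.5, 7.82 and 15.1 CPM at 0 h (-1.45 ± 0.32, edgeR adjusted p = 0.102). The DESeq2 count for this list was 6 without the second 12 h library, 3 without the third 12 h library and 1 without the third 0 h library. Its library medians were also below the 0 h mean at 3 h (-0.98, -0.77 and -0.91) and at 6 h (-0.83, -0.69 and -0.63). The list median was 0.41 for 12 h over 6 h and 0.69 for 12 h over 3 h.

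Glycolysis is the process that the study's title ties to Kupffer cells, through aldolase delivered by platelets. Of 22 tested genes, 20 had a positive log2 fold change with a median of 0.23, 4 were separated with 12 h higher (Gpi1, Aldoa, Eno3 and Pkm), and DESeq2 called 2 higher (Eno3 and Pkm). Aldoa, the muscle-type aldolase (chr7:126795234-126800994, GRCm38.p6), had 554, 798 and 868 CPM at 12 h, against 519, 476 and 434 CPM at 0 h. All 3 12 h libraries lay above the 0 h libraries, the first by little, and the log2 fold change of 0.68 ± 0.28 did not pass (edgeR adjusted p = 0.339, DESeq2 adjusted p = 0.159). Aldoc, the brain-type form, had 1.86, 3.85 and 3.46 CPM at 12 h, against 2.89, 2.57 and 2.91 CPM at 0 h, and the groups overlapped. Pkm, which encodes pyruvate kinase of most tissues outside liver, had 1046, 1212 and 1505 CPM at 12 h, against 807, 607 and 569 CPM at 0 h (0.97 ± 0.29, edgeR adjusted p = 0.197). Eno3, an enolase, had 49.2, 47.2 and 60.7 CPM at 12 h, against 30.5, 27.7 and 33.8 CPM at 0 h (0.81 ± 0.20, edgeR adjusted p = 0.126). These values are RNA levels in the preparation, and protein carried into the cells would not appear in them.

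Ldha, Hk2, Slc2a1 and Pfkfb3 were not separated. Ldha, which makes lactate, had 245, 591 and 505 CPM at 12 h, against 385, 453 and 451 CPM at 0 h. Hk2, an inducible hexokinase, had 83.4, 77.1 and 148 CPM at 12 h, against 119.5, 104 and 129.8 CPM at 0 h. Slc2a1, the glucose carrier GLUT1, and Pfkfb3, which makes the activator of phosphofructokinase, also overlapped, with log2 fold changes of 0.12 ± 0.35 and -0.07 ± 0.24. Glycolysis counts rested on the libraries used: without the first 12 h library DESeq2 called 8 and the median was 0.44. DESeq2 called 0 without the third 12 h library or the second or the third 0 h library, and 1 without the first 0 h library. All 7 pentose phosphate genes had a positive log2 fold change, with a median of 0.60 that was 0.22 without the second 12 h library. Of these, Taldo1, transaldolase, was separated, with 301, 526 and 356 CPM at 12 h, against 226, 184 and 181 CPM at 0 h (1.06 ± 0.30, edgeR adjusted p = 0.179). DESeq2 called it as the only gene of the list, 4 genes without the first 12 h library, and 0 without the third 12 h library or without any 1 of the 0 h libraries.

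Platelet transcripts were at low levels, and some lay higher at 12 h. Of 18 listed genes, 12 had enough counts to be tested, and the untested ones included Gp9, Gp5, Gp6 and Gp1bb of the platelet surface. Among the 12, 5 were separated with 12 h higher, 1 with 12 h lower, and DESeq2 called 2 higher. Pf4, the chemokine platelet factor of alpha granules, had 39.0, 33.3 and 22 CPM at 12 h, against 12.7, 7.72 and 10.9 CPM at 0 h (log2 fold change 1.64 ± 0.32, edgeR adjusted p = 0.0823). Ppbp, another granule chemokine, had 2.64, 1.64 and 2.16 CPM at 12 h, against 0.774, 0.807 and 0.603 CPM at 0 h (1.59 ± 0.34, edgeR adjusted p = 0.1). Itga2b, which encodes the platelet integrin CD41, had 5.69, 4.18 and 2.81 CPM at 12 h, against 4.08, 2.82 and 3.31 CPM at 0 h, and the groups overlapped. DESeq2 called 1 gene higher and 1 lower without the first 12 h library, 3 higher without the second 12 h library, and 1 higher without the third 12 h library or the first or second 0 h library. The summed level of the list overlapped too, with 679, 289.6 and 230.1 CPM at 12 h, against 469, 293 and 295 CPM at 0 h. Relative to the 0 h mean, the library medians of the list were 0.65, 0.39 and -0.11 at 12 h. They were 0.69, 0.70 and 0.77 at 3 h and 0.90, 0.76 and 0.50 at 6 h. The list median was -0.17 for 12 h over 6 h and -0.10 for 12 h over 3 h, so the higher level was not particular to 12 h.

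The inflammatory genes commonly followed in this injury were not separated in 1 direction. Of 26 cytokine and chemokine genes, 2 were separated with 12 h higher and 4 with 12 h lower, and the median log2 fold change was -0.39, or between -0.86 and -0.17 without single libraries. Il1b had 731, 1637 and 927 CPM at 12 h, against 1097, 589 and 482 CPM at 0 h. Tnf had 94.8, 221 and 163 CPM at 12 h, against 437, 198 and 213 CPM at 0 h. Il6, Il10, Ccl2, Cxcl1 and Cxcl2 also overlapped between the groups, with log2 fold changes from -0.97 to 0.51. The members called by DESeq2 included Ccl24, an eosinophil attractant, with 90.8, 81.0 and 62.4 CPM at 12 h, against 17.9, 16.6 and 40.1 CPM at 0 h (1.69 ± 0.39, edgeR adjusted p = 0.112). The other 3 were lower. Csf1, the growth factor of macrophages, had 118, 104 and 123 CPM at 12 h, against 417, 376 and 145 CPM at 0 h. Cxcl10, a chemokine induced by interferon, had 68.6, 102 and 48.7 CPM at 12 h, against 307, 197 and 127 CPM at 0 h. Csf3, the neutrophil growth factor, had 0.880, 0.375 and 0.351 CPM at 12 h, against 5.00, 1.77 and 1.00 CPM at 0 h. Of 19 NF-kB feedback and activation genes, 1 was separated higher and 3 lower. Bcl3, a nuclear IkB protein, had 96.6, 77.1 and 73.9 CPM at 12 h, against 211, 200.2 and 116 CPM at 0 h (-1.05 ± 0.29). In the lower genes named here the first 0 h library was the highest of its group. DESeq2 called 0 cytokine genes lower without the third 12 h library or the first or second 0 h library, and 7 without the second 12 h library. Of the NF-kB list it called 0 lower without the second or the third 12 h library or the first or second 0 h library.

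Genes of DNA replication were higher in part. Of 22, 9 were separated with 12 h higher and 0 with 12 h lower, the median log2 fold change was 0.62, and DESeq2 called 3. Mcm7, a subunit of the replicative helicase, had 20.4, 25.8 and 19.5 CPM at 12 h, against 11.1, 11.5 and 12.4 CPM at 0 h (0.96 ± 0.23, edgeR adjusted p = 0.121). E2f1, which drives entry into S phase, had 11.1, 17.1 and 21.2 CPM at 12 h, against 6.66, 6.46 and 9.44 CPM at 0 h (1.18 ± 0.32). DESeq2 called 0 of the list without any 1 of the 0 h libraries, 1 without the second 12 h library and 6 without the first. Mitosis genes did not separate with them: 1 of 22 was separated higher, and Mki67, the proliferation antigen, had 58.9, 12.2 and 32.4 CPM at 12 h, against 45.4, 38.4 and 35.4 CPM at 0 h. Among 16 targets of p53, 2 were separated higher and called by DESeq2. Cdkn1a, the cell cycle inhibitor p21, had 339, 274 and 266 CPM at 12 h, against 176, 118 and 93.4 CPM at 0 h (1.23 ± 0.29, edgeR adjusted p = 0.12). Sesn1, a stress-induced regulator of growth signalling, averaged 63.5 ± 9.74 CPM (SD) in the 12 h group and 34.8 ± 8.52 CPM in the 0 h group (n = 3 each). Of the p53 list DESeq2 called 0 without the second 0 h library and 1 without the third 12 h library, the first 0 h library or the third 0 h library.

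Hypoxia targets outside glycolysis included 4 of 16 genes separated with 12 h higher and 0 with 12 h lower, and DESeq2 called 3. Mxi1, a MYC antagonist, had 50.0, 41.1 and 51.9 CPM at 12 h, against 15.6, 20.7 and 22.6 CPM at 0 h (1.32 ± 0.23, edgeR adjusted p = 0.0746). Vegfa, the vascular growth factor, had 38.3, 77.5 and 101 CPM at 12 h, against 36.7, 27.5 and 23.3 CPM at 0 h (1.36 ± 0.38). DESeq2 called 1 of the hypoxia list without the second 0 h library. NRF2 targets, which defend against oxidative stress, divided: 2 of 18 were separated higher and 5 lower. Gsta1, a glutathione transferase, had 1.29, 16.8 and 4.91 CPM at 12 h and at most 0.101 CPM in any 0 h library. Cat, catalase, had 172, 202 and 240.0 CPM at 12 h, against 468, 1122 and 1125 CPM at 0 h (-2.10 ± 0.40, edgeR adjusted p = 0.0809), and it is also abundant in hepatocytes. Hmox1, heme oxygenase, had 3687, 1555 and 1327 CPM at 12 h, against 3472, 3099 and 2742 CPM at 0 h, and the groups overlapped.

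Among 18 circadian clock genes, 7 were separated with 12 h higher and 4 with 12 h lower, and DESeq2 called 3 in each direction. Nr1d2, the repressor REV-ERB beta, had 78.1, 63.8 and 47.4 CPM at 12 h, against 19.2, 26.5 and 32.7 CPM at 0 h (1.32 ± 0.29, edgeR adjusted p = 0.104). Tef, an output factor of the clock, had 33.8, 32.7 and 34.2 CPM at 12 h, against 13.8, 19.7 and 20.1 CPM at 0 h (0.95 ± 0.23). Npas2, a partner of BMAL1 in the activating arm, had 0.828, 0.329 and 0.852 CPM at 12 h, against 2.63, 1.46 and 2.91 CPM at 0 h (-1.77 ± 0.47). DESeq2 called 0 clock genes higher without the first or second 0 h library and 1 without the third 0 h library, and 0 lower without the second 0 h library and 1 without the third 0 h library. Time after the drug and the hour of the day at which livers were taken cannot be told apart here. Glucocorticoid-induced genes had a positive median of 0.73 that came from 1 library: the medians were 1.54, -0.20 and -0.10 at 12 h, against -0.04, 0.03 and 0.01 at 0 h. Fkbp5, which feeds back on the glucocorticoid receptor, had 687, 50.8 and 98.6 CPM at 12 h, against 53.7, 66.1 and 56.4 CPM at 0 h.

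Kupffer cell identity genes were present in every library, as the labelled cell type requires. Of 24, 1 was separated higher and 1 lower, DESeq2 called 0, and the median log2 fold change was -0.07, or between -0.19 and 0.06 without single libraries. Without the first 12 h library DESeq2 called 1 higher and 2 lower, and without the second or the third 12 h library or the third 0 h library it called 2, 1 and 1 higher. Clec4f, the lectin that marks these cells, had 1803, 1029.5 and 1453 CPM at 12 h, against 1412, 1323 and 2055 CPM at 0 h. Timd4, a receptor for dying cells on resident macrophages, had 143, 157 and 206 CPM at 12 h, against 206, 207 and 289 CPM at 0 h, and the groups overlapped (-0.43 ± 0.26, edgeR adjusted p = 0.508). The separated genes were Kcna2, a potassium channel, with 56.6, 46.9 and 142 CPM at 12 h, against 26.7, 19.8 and 46.5 CPM at 0 h, and Spic, a factor of red pulp and iron-handling macrophages, with 175, 176 and 102 CPM at 12 h, against 436, 237 and 191 CPM at 0 h.

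Markers of other cells were present as well. Sinusoidal endothelial genes had a median of -0.33 with 2 of 20 separated lower and 1 called lower by DESeq2. The median was -1.16 without the first 12 h library, where DESeq2 called 5 lower, and 0.09 without the third 12 h library. Stab2, an endothelial scavenger receptor, had 1836, 522 and 324 CPM at 12 h, against 1083, 1254 and 1093 CPM at 0 h. Of 17 stellate cell and fibroblast genes, 2 were separated higher and 3 lower, and of 9 cholangiocyte genes 4 were lower. Ngfr, a neurotrophin receptor of stellate cells, had 0.673, 3.85 and 1.15 CPM at 12 h, against 13.4, 15.6 and 15.8 CPM at 0 h (-2.90 ± 0.64, edgeR adjusted p = 0.103). For neutrophils 1 of 18 tested genes was separated, for dendritic cells 1 of 16, for T and NK cells 2 higher and 4 lower of 19, and for erythroid cells 1 of 5. All 12 B cell genes had a positive log2 fold change and 0 were separated or called by DESeq2. Their median was 0.32, against 0.73 without the first 12 h library, where DESeq2 called 4 higher, and -0.02 without the third 12 h library. Cytosolic ribosomal protein genes had medians of -0.11, 1.56 and 0.47 at 12 h, against 0.07, -0.03 and -0.05 at 0 h. Their median log2 fold change was 0.87. With DESeq2 it was 1.18, 0.22 and 1.06 without the first, the second and the third 12 h library. The part of transcript length in these values was not tested. Proteasome genes had the same order, with medians of -0.45, 1.09 and 0.10 at 12 h, against -0.06, 0.09 and -0.01 at 0 h.

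The 12 h libraries could also be set against the 6 h libraries of their own table, where time and table are not confounded. Of 14010 genes, edgeR called 0 (0%), with 726 (5.18%) at an unadjusted p under 0.05, and DESeq2 called 3 (0.0214%). Those called higher were Gpnmb and Hamp. Gpnmb had 16.0, 167 and 183 CPM at 12 h, against 6.86, 5.73 and 5.38 CPM at 6 h (DESeq2 log2 fold change 4.38 ± 0.72, DESeq2 adjusted p = 1.467e-05). Hamp, which encodes the iron hormone hepcidin, had 49.2, 65.6 and 15.0 CPM at 12 h, against 11.0, 5.46 and 6.25 CPM at 6 h. The hepatocyte and acute phase lists had medians of -0.07 and 0.27 for 12 h over 6 h. The hepatocyte list stood below the 0 h mean at 3 h as well, which shares its table with 0 h, with library medians of -2.46, -1.32 and -1.78 at 3 h and -1.68, -1.89 and -2.02 at 6 h. The lipid-associated macrophage list had medians of 1.18 for 12 h over 6 h and 1.34 for 12 h over 3 h, comparisons that use the same 12 h libraries. In the same comparisons the monocyte-derived macrophage list had medians of 1.35 and 2.35, and the Kupffer cell identity list -0.42 and -0.46. Clec4f and Timd4 were separated with 12 h lower than 6 h. Their log2 fold changes were -1.13 ± 0.33 and -0.98 ± 0.29 (edgeR adjusted p = 0.697 for both). The part of the cell mixture in these values was not tested.

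**Figure D5:**
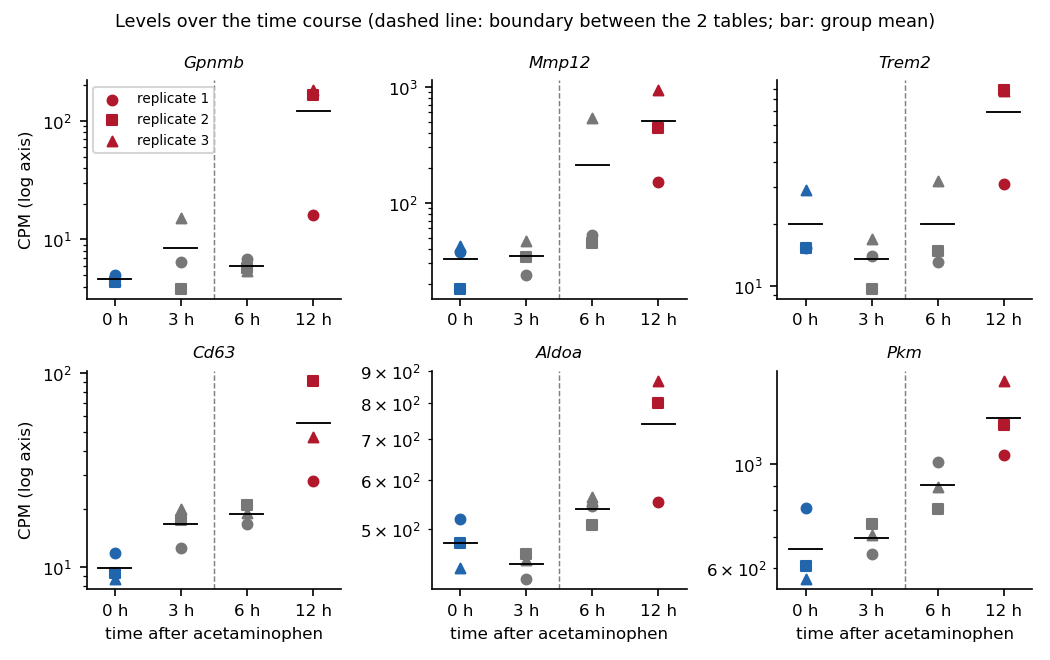
CPM on a log axis (vertical) of Gpnmb, Mmp12, Trem2, Cd63, Aldoa and Pkm at 0, 3, 6 and 12 h after acetaminophen (horizontal), with 1 symbol per library and a bar at each group mean, blue for 0 h and red for 12 h. The dashed line marks where the table changes, and Gpnmb stays under 16 CPM until 12 h, when 2 libraries reach 167 and 183 CPM.

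Against 3 h, across tables, edgeR called 3 of 14116 genes (0.0213%), with 3677 (26%) at an unadjusted p under 0.05, and DESeq2 called 1914 (13.6%). Csf3, the neutrophil growth factor, had 0.880, 0.375 and 0.351 CPM at 12 h, against 34.7, 55.3 and 111 CPM at 3 h, a log2 fold change of -6.94 ± 0.63 (edgeR adjusted p = 0.0378). Itga8, an integrin of stellate cells and smooth muscle, had 7.14, 7.51 and 5.72 CPM at 12 h, against 46.3, 37.3 and 50.2 CPM at 3 h (-2.68 ± 0.24, edgeR adjusted p = 0.0378). Fut7, which builds selectin ligands on leukocytes, had 6.26, 8.03 and 10.9 CPM at 12 h, against 0.413, 0.379 and 0.520 CPM at 3 h (4.27 ± 0.37, edgeR adjusted p = 0.0378). These calls depended on the libraries: edgeR called 0 genes without any single library other than the first 12 h library, and without that one 1934 higher and 1424 lower. With the replicate numbers as a block it also called 0. All 3 were called in neither the comparison with 6 h nor that with 0 h by edgeR, and the differences between these comparisons were not tested.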

How the data were processed

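The deposited tables hold, for each library and gene, expected counts, FPKM and TPM made by the authors, and about 35.3 to 36.2% of the counts are not whole. Per the submitters' processing notes reads were aligned with HISAT2 to GRCm38, while the sources used here name neither the counting program nor its strand setting nor any version. The tables for 0 h with 3 h and for 6 h with 12 h were joined on gene ID. At most 0.0144% of a library's counts lay outside the joined genes, no symbol differed (0), and the gene length implied by the authors' counts and FPKM agreed within 5% for 11803 of 12297 genes.

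Counts were rounded, filtered (filterByExpr, minimum count 10), scaled by TMM and tested with edgeR 4.0.16 (quasi-likelihood, two-sided, Benjamini-Hochberg, threshold 0.05; R 4.3.3), on the 6 libraries of the comparison. The SE of an edgeR log2 fold change is its size divided by the square root of its F statistic. CPM uses TMM factors over the 12 time-course libraries. Alternatives were DESeq2 1.42.0, DESeq2 size factors, no filter, limma 3.58.1 on log2(FPKM + 1) and log2(FPKM + 0.1), voom with sample weights, a replicate block, all 12 libraries in 1 fit, and each library left out. Runs of DESeq2 and of the list counts without single libraries were added after seeing the data. TPM was not tested. Some genes are not reported here. With 3 against 3 samples an exact permutation test cannot go below 0.1, so none was used.

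The members and the gene lists were chosen with earlier results of these data known. The rule for named genes took the 14 called genes with the largest change in each direction that were separated and had a group mean of at least 10 CPM, a fixed panel of 18 genes, and up to 4 genes per list with the smallest p. The first part named 0 genes, so DESeq2 calls took its place, and other list members were named after their values were seen. Same-numbered samples of 12 h and 0 h were not treated as pairs. Gene positions and promoters come from RefSeq tables of GRCm38.p6, matched by gene ID. Scripts were tested on simulated data.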

Additional observations from a re-analysis of the deposited data

How the results depend on the processing

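With edgeR 0 genes were called higher and 0 lower at 12 h than at 0 h; DESeq2 gave 238 and 653, a fit of all 12 libraries 202 and 553, log2(FPKM + 0.1) 0 and 5, and leaving out 1 library 0 to 39 and 0 to 194. DESeq2 without 1 library gave 35 to 711 higher and 265 to 1164 lower. The other settings for this comparison (size factors, no filter, log2(FPKM + 1), voom and genes of equal implied length) called 0. A replicate block on the shared numbers gave 2 higher and 150 lower. The deviations of same-numbered samples from their group means correlated at -0.086, 0.21 and -0.136, against -0.34 to 0.317 for differently numbered ones. With 3 samples per group these values cannot show whether the samples are paired. The labels give only a shared number, so no pairing was assumed. Against 6 h DESeq2 called 2 higher and 1 lower, and leaving out 1 library gave 0 to 1 in each direction. Against 3 h (1 higher and 2 lower) DESeq2 gave 1040 and 874, all 12 libraries 1508 and 1068, and voom 329 and 284. There log2(FPKM + 1) gave 4 and 10, without its filter 0 and 1, and log2(FPKM + 0.1) 1 higher and 1 lower. The replicate block gave 0 and 0 against 3 h, and leaving out 1 library 0 to 1934 and 0 to 1424.

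List medians follow as 12 h over 0 h (log2), with edgeR where single libraries were left out. Cholangiocyte genes (-0.90) ran from -1.28 to -0.32 without single libraries and stood at -0.30 with FPKM and no filter. Platelet genes (0.68) stood at 1.15 with no filter, 0.17 with FPKM and no filter and 0.27 with voom. Without single libraries cholesterol genes (-0.48) ran from -0.90 to -0.32, liver X receptor targets (0.20) from -0.12 to 0.30, iron genes (-0.10) from -0.43 to 0.14, metallothioneins (-0.14) from -0.59 to 0.010, p53 targets (0.26) from 0.14 to 0.42, mitosis genes (0.40) from -0.23 to 0.67 and metalloproteinases (0.43) from -0.040 to 0.54. Alternative activation genes (0.19) ran from -0.066 to 0.29 and stood at -0.053 with log2(FPKM + 1), with and without its filter, and at -0.055 with log2(FPKM + 0.1). NRF2 targets (-0.05) stood at -0.17 with voom, acute phase genes (-1.32) at -1.94 with voom and from -1.99 to -0.96 without single libraries, and clock genes (0.56) at 0.18 with FPKM and no filter. Hypoxia targets (0.40) ran from 0.20 to 0.50 and stood at 0.26 with log2(FPKM + 1), 0.27 with log2(FPKM + 0.1), 0.26 without its filter, 0.21 with voom, 0.30 with the replicate block and 0.27 over genes of equal implied length. The causes were not tested. Outside the DESeq2 runs without single libraries, the hepatocyte median (-1.81) ran from -2.54 with voom to -1.32 without the third 12 h library. The interferon-stimulated median (-0.68) ran from -0.83 to -0.54 and the lipid-associated macrophage median (0.92) from 0.67 to 1.18. DESeq2 without single libraries gave -2.23 to -1.31, -0.83 to -0.48 and 0.65 to 1.19 for these lists, in that order. These 3 medians kept their sign in all of these settings.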

Other observations

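Slc11a2, which carries iron out of endosomes, was the only separated gene among 16 for iron and heme handling, with 30.0, 32.8 and 39.3 CPM at 12 h, against 104, 80.0 and 62.6 CPM at 0 h (log2 fold change -1.23 ± 0.25, edgeR adjusted p = 0.0917). Of 18 alternative activation and repair genes, 3 were separated with 12 h higher and 1, Arg1, with 12 h lower. Among the higher ones Ccl17, a chemokine for T cells, had 2.48, 3.85 and 1.15 CPM at 12 h, against 0.619, 0.252 and 0.402 CPM at 0 h (2.60 ± 0.59, edgeR adjusted p = 0.107). Of 16 complement genes, 3 were separated with 12 h lower. Cfb, the factor of the alternative pathway, had 105, 102 and 114 CPM at 12 h, against 213, 204 and 144 CPM at 0 h (-0.76 ± 0.23, edgeR adjusted p = 0.203). Heat shock protein genes had 3 of 14 separated lower and a median of -0.26, or -0.58 without the second 12 h library, while 23 of 24 immediate early genes had a positive log2 fold change and 3 were separated higher. All 12 MHC class II presentation genes had a positive log2 fold change with a median of 0.70, 1 was separated and DESeq2 called 0. Without the first 12 h library DESeq2 called 6 of them higher and the median was 0.95, and without the second 12 h library the median was 0.23. For the nuclear-encoded respiratory chain, mitochondrial ribosomal proteins and prostaglandin and leukotriene enzymes 0 genes were separated.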
